A study of Rattus norvegicus with 48 samples.

Results

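The CA3 field of the hippocampus was compared between stressed rats of the vinclozolin lineage (St-Vin) and stressed rats of the control lineage (St-Con), with 3 arrays in each group. The members are the arrays that the labels place in CA3 and in these 2 groups, 6 of the 48 arrays of the series. All 6 were scanned on the same day, together with the 6 arrays of unstressed rats from CA3 (NSt-Vin and NSt-Con).

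The rats were Sprague-Dawley males of the F3 generation, killed at 120 days of age. The vinclozolin lineage descends from F0 females injected with 100 mg/kg/day of this fungicide during gestation (embryonic days 8 to 14); founders of the control lineage received DMSO, the vehicle, instead. The F3 rats were not dosed themselves. Both St groups were restrained for 6 hours a day on 21 days, postnatal days 23 to 43, and the NSt groups were not. Each array holds RNA pooled from 2 mm punches of 4 rats, so n = 3 means 3 pools. A vinclozolin-lineage and a control-lineage rat shared a cage as a dyad, and 4 dyads supplied the St-Vin and the St-Con pool of dyad group 4, 5 or 6. Values below are given in the order of these dyad groups, as log2 signals, on which a difference of 1 is a doubling.

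CA3 pyramidal cells receive the mossy fibres of the dentate gyrus, excite each other through recurrent collaterals and project to CA1. They express glucocorticoid and mineralocorticoid receptors, and CA3 is known in rodents for dendritic remodelling after repeated restraint. Vinclozolin metabolites block the androgen receptor, and the design asks whether descent from exposed females goes with another expression state in the stressed adult.

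No probe set passed the test between St-Vin and St-Con. Of 27342 probe sets, 0 passed an adjusted p of 0.05 in limma with Benjamini-Hochberg adjustment (0%), and the lowest adjusted p was 0.529. At an unadjusted p under 0.05 there were 1142 probe sets (4.18%), of which 447 (1.63%) were higher and 695 (2.54%) lower in St-Vin. With the dyad group as a replicate block in the same fit the count was again 0, with 1489 probe sets at an unadjusted p under 0.05. A fit of the 6 stressed arrays alone with that block called 2 probe sets (0.00731%), which hold the same values as each other in every array and have no gene symbol in the annotation. They read 7.83, 8.08 and 7.27 in St-Vin, against 6.78, 7.26 and 6.16 in St-Con, with an adjusted p of 0.0221. Each St-Vin pool stood above its own cage-mate pool, by 1.05, 0.82 and 1.11, and the lowest St-Vin value lay just above the highest St-Con value. The same probe sets differed by 1.07, -0.33 and -0.66 in the unstressed dyad groups 1, 2 and 3. In simulated data of this size the fit recovered 67% of changes of 0.5 and 98% of changes of 1 on the log2 scale. That simulation drew independent noise for each probe set, without variation shared by cage mates or by tissue content. Changes smaller than 0.5 were not simulated, so it does not show how often they would be called.

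The lineage difference was not alike in the 3 dyad groups. A lineage difference of at least 0.5 in either direction was seen in 92 probe sets in dyad group 4, in 137 in dyad group 5 and in 160 in dyad group 6. Over all probe sets the differences of dyad group 4 correlated at -0.011 with those of dyad group 5 and at -0.023 with those of dyad group 6, and dyad groups 5 and 6 correlated at 0.111. These correlations are across probe sets, which are not independent, and are given as a description. The pools hold different animals, so the p-values measure the spread between pools.

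Differences followed the signal level. With probe sets split into 5 bins of equal size by mean level, the median St-Vin minus St-Con difference was 0.0067 in the dimmest bin and -0.0567 in the brightest. The brightest bin was at -0.04, -0.01 and -0.11 in dyad groups 4, 5 and 6, and at 0.0533 in NSt-Vin minus NSt-Con. After quantile normalization it was at -0.0025. That step gives every array the same distribution of values, so it largely removes a shift shared by a level bin, whatever its source. Over the 14324 genes with a symbol the median was -0.0167, and 8262 of them were lower in St-Vin. The 3 St-Vin values lay below all 3 St-Con values in 5.74% of genes and above them in 3.39%. In the brightest bin of probe sets those shares were 9.97% below and 0.585% above.

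**Figure D1:**
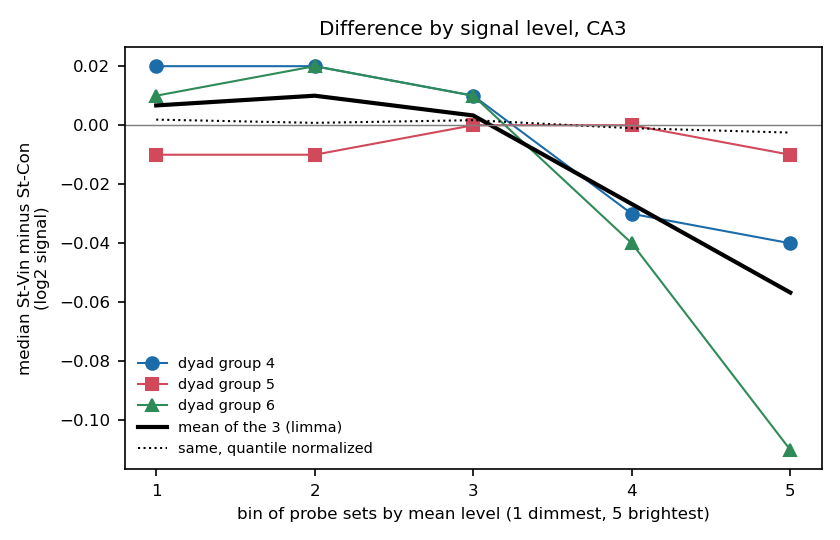
Median St-Vin minus St-Con difference of log2 signal (y axis) in 5 bins of probe sets from the dimmest to the brightest (x axis), for each dyad group, for their mean and after quantile normalization. In the brightest bin dyad group 6 lies lowest, at -0.11. The quantile-normalized line stays near 0, which is largely built into that step.

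The dissected tissue carried CA3 markers. Of 13 measured markers of CA3 and CA2 pyramidal cells, 11 were, in all 6 arrays, above each of the 5 stressed CA1 arrays compared, and the list's median was 8.1 to 8.33 per CA3 array, against 7.39 to 7.98 in CA1. The third St-Con array of CA1 was not used, since its values equal the mean of the other 2 to within 0.005 in every probe set. The 6 CA1 pyramidal markers did not separate the punches as a list, with medians of 9.075 to 9.57 in CA3 and 9.05 to 10.06 in CA1. In all 6 CA3 arrays 1 of them, Pou3f1, was above each of those CA1 arrays, at 7.85 to 8.21 against 7.18 to 7.54. Below each of them were 0. The 6 markers of dentate granule cells had medians of 8.82 to 10.275 in CA3 and 7.395 to 8.61 in CA1. In all 6 CA3 arrays 3 of them were above each of those CA1 arrays. The dim Tdo2 was the 1 marker below each of them, at 5.17 to 5.34 against 5.38 to 5.46. In such punches, fewer cells of a type and less RNA per cell cannot be told apart.

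Markers of neighbouring tissue varied widely between pools. Transthyretin (Ttr), secreted by the choroid plexus epithelium to carry thyroid hormone, read 11.57, 5.69 and 12.09 in St-Vin, against 13.43, 8.30 and 11.70 in St-Con. Both pools of dyad group 5 were low, and the groups overlapped. The median of 16 choroid plexus markers differed by -0.165, -0.405 and 0.51 in dyad groups 4, 5 and 6. C1ql2, a complement-like protein made by dentate granule cells and released from mossy fibres, read 9.25, 10.26 and 8.40 in St-Vin, against 9.40, 9.65 and 8.14 in St-Con. The 6 CA1 pyramidal markers had list differences of 0.11, -0.145 and -0.495, so that those in dyad group 6 were low in St-Vin. Oligodendrocyte and myelin markers differed by 0.39, -0.16 and -0.03, and astrocyte markers by -0.02, 0.145 and -0.22.

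**Figure D2:**
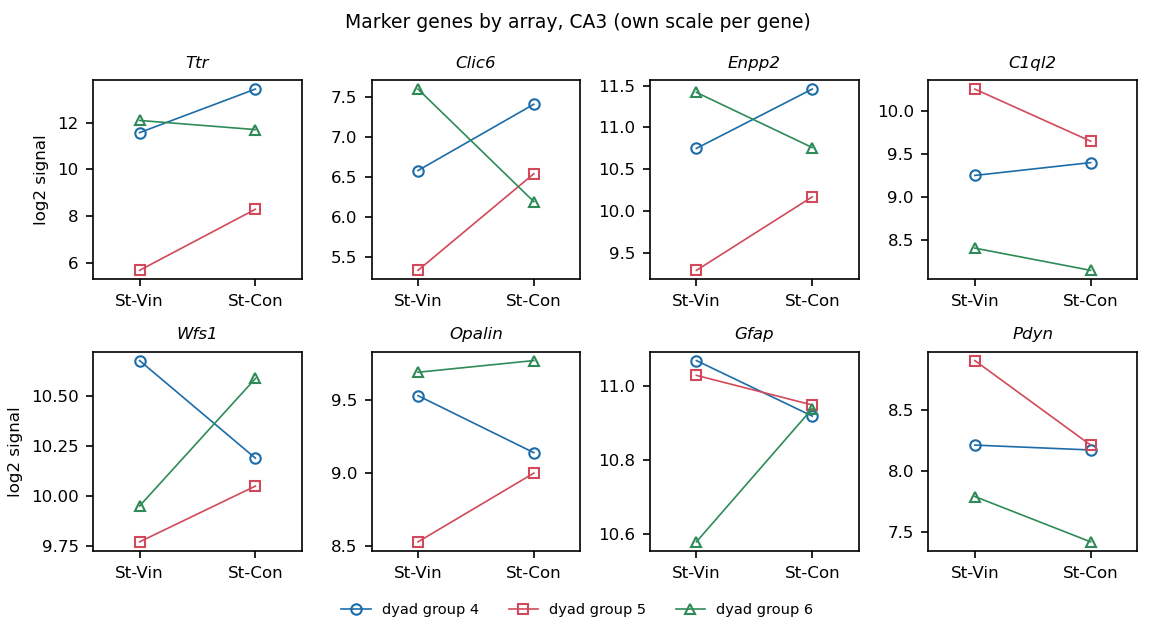
Log2 signal (y axis, own scale per gene) of marker genes in St-Vin pools and St-Con pools (x axis), with a line joining the cage-mate pools of a dyad group. Ttr, Clic6 and Enpp2 mark choroid plexus, C1ql2 dentate granule cells, Wfs1 CA1 pyramidal cells, Opalin oligodendrocytes and Gfap astrocytes, and Pdyn is the dynorphin precursor; the lines run in different directions between dyad groups for every gene but Pdyn.

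Among genes higher in St-Vin, Tcf7l1 lay nearest to the threshold. It encodes a TCF/LEF transcription factor that acts, largely as a repressor, at Wnt target genes. Its log2 signal was 8.40, 8.34 and 8.41 in St-Vin, against 8.07, 8.22 and 8.18 in St-Con. The lowest St-Vin pool stood above the highest St-Con pool. The means were 8.38 ± 0.0379 and 8.16 ± 0.0777 (SD, n = 3 each), the difference was 0.23 ± 0.051 (SE), and the adjusted p was 0.996. Without stress Tcf7l1 differed by -0.04, and under stress it differed by 0.06 in the basolateral amygdala (BLA) and by -0.10 in motor cortex (CRTX).

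The other genes named by the rule for higher genes were closer to the spread between pools. Srp19, a protein of the signal recognition particle that targets secretory proteins to the endoplasmic reticulum, read 7.89, 7.88 and 7.89 in St-Vin, against 7.77, 7.73 and 7.63 in St-Con, a difference of 0.18. Plp2, a small multipass membrane protein, read 8.19, 8.36 and 8.28 in St-Vin, against 8.07, 8.15 and 8.02 in St-Con, a difference of 0.20. Neither gene's groups overlapped. Bco2, a mitochondrial carotenoid-cleaving oxygenase, was 0.21 higher. Pnpla5, Serhl2, the zinc-finger gene Zfp358 and 1 of the 2 probe sets of Yipf4 were higher by 0.14 to 0.22, and the other Yipf4 probe set differed by -0.13.

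4 of the 12 were olfactory receptor genes (Or1f21, Or6s1, Olr1500 and Or2r3), whose products detect odorants in nasal neurons. This led to a look at all of them, a list chosen after these values were seen. Of 1104 olfactory receptor genes, 734 were higher and 350 lower in St-Vin, with a median of 0.0333 against -0.0167 for all genes. In 108 of them (9.78%, against 3.39% of all genes) all St-Vin pools lay above all St-Con pools, and in 23 (2.08%, against 5.74%) all lay below. In the 2 dimmest bins of probe sets 5.74% and 5.65% lay above and 4.06% and 3.02% below. The median stayed at 0.0279 after quantile normalization and was -0.025 without stress, and 4 of the 1104 were in the brightest bin. Under stress the list median was 0.0367 in BLA, much as in CA3, and 0.0067 in CRTX. It was 0.0083 for CA3 minus the mean of those areas.

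Among genes lower in St-Vin, Zcchc7, a zinc-knuckle protein of the nuclear RNA surveillance machinery, read 9.82, 9.86 and 9.77, against 9.94, 10.12 and 10.12 in St-Con. Its highest St-Vin pool lay under its lowest St-Con pool. The difference was -0.24 ± 0.059 (SE, n = 3 each) with an adjusted p of 0.996, and it was 0.01 without stress. Lrrtm2, a postsynaptic adhesion protein that binds neurexins at excitatory synapses, read 9.77, 9.72 and 9.68 in St-Vin, against 9.94, 9.87 and 9.96 in St-Con, a difference of -0.20. Gdap1, an outer mitochondrial membrane protein, read 10.02, 9.95 and 10.03 in St-Vin, against 10.31, 10.09 and 10.22 in St-Con, a difference of -0.21. Each of these genes was lower in all 3 dyad groups, as the naming rule required, and none passed the test. All their values lay above 9.035, where the brightest bin begins, and that bin had a median of -0.0567. After quantile normalization the differences were -0.18 for Zcchc7, -0.13 for Lrrtm2 and -0.14 for Gdap1.

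Setdb2, a SET-domain histone methyltransferase, read 8.49, 8.32 and 8.39 in St-Vin, against 8.57, 8.62 and 8.69 in St-Con, a difference of -0.23. It was higher under stress by 0.16 in BLA and by 0.17 in CRTX, and the difference between CA3 and the mean of those areas was -0.39 ± 0.084 (SE) with an adjusted p of 0.757. Slf1, a factor that brings the SMC5/6 complex to DNA damage, differed by -0.26 and by -0.14 on its 2 probe sets. Fam135a, Abca5, Prpf38b, Rida, Znf57l, Rfesd and Zmym6 differed by -0.16 to -0.22. Between the dyad groups these differences varied severalfold, as for Abca5, an ATP-binding cassette transporter of endosomes and lysosomes, at -0.33, -0.23 and -0.05.

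**Figure D3:**
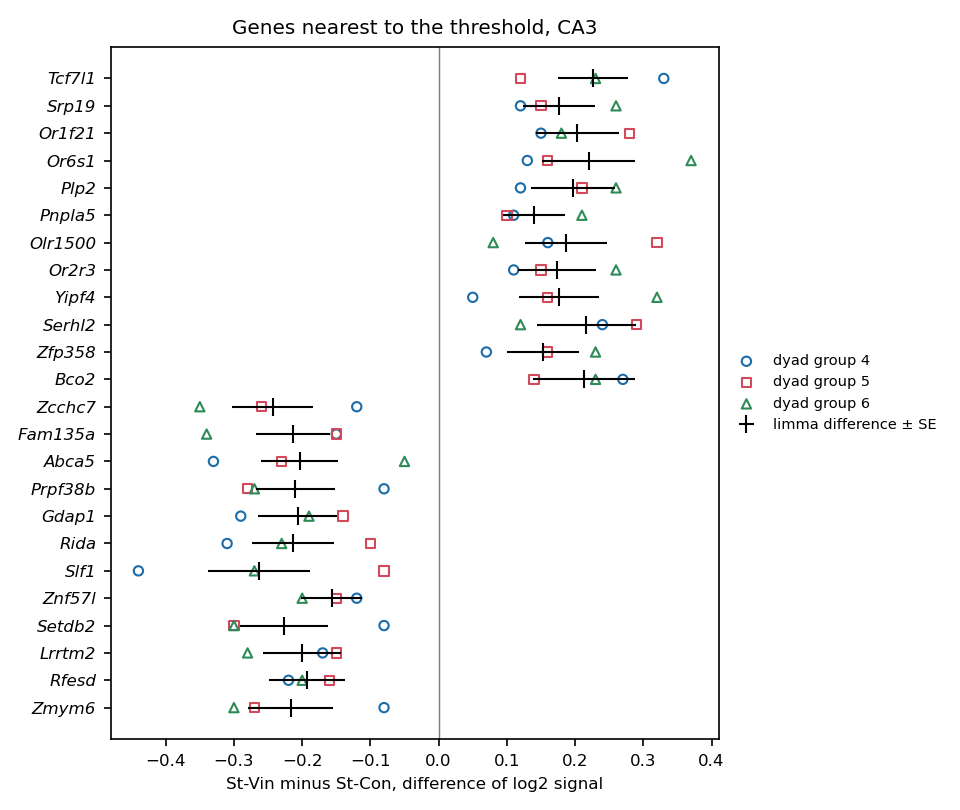
St-Vin minus St-Con difference of log2 signal (x axis) of the 12 genes with the smallest p in each direction (y axis), with a symbol for each dyad group and a bar for the limma difference ± SE. Every symbol is on the same side of 0 for a gene because the naming rule required it; no gene passed the adjusted threshold.

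Lrp1b, a giant endocytic receptor of the low density lipoprotein receptor family that is abundant in neurons, was measured by 16 probe sets. It was named for its difference between CA3 and the other areas. Under stress 15 of the 16 probe sets were lower in St-Vin, with differences of -0.35 to 0.0033 and a median of -0.21, and after quantile normalization 15 were again lower with a median of -0.16. The probe sets share the same pools and the same gene, so they are not replicates. On the probe set that named it, St-Vin read 9.96, 9.98 and 9.57, against 10.02, 10.41 and 10.12 in St-Con. The groups did not overlap, but dyad group 4 differed by only -0.06 and dyad group 6 by -0.55. The limma difference was -0.35 ± 0.13 (SE, n = 3 each), adjusted p 0.996. The median over its probe sets was -0.03 without stress, and under stress -0.08 in BLA and 0.22 in CRTX. The test of CA3 against the mean of BLA and CRTX gave -0.42 ± 0.086 (SE) with an adjusted p of 0.757.

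Receptor subunits for glutamate, the transmitter of mossy fibre, recurrent and Schaffer collateral synapses, mostly had lower values in St-Vin, as bright genes did in general, with none past the test. Of 17 measured AMPA, kainate and NMDA subunits 14 were lower, the list median was -0.07, and 4 (23.5%) had groups that did not overlap, all lower in St-Vin, against 5.74% of all genes and 10.2% of genes in the brightest bin. That bin held 10 of the 17, and 2953 of its 3477 genes with a symbol were lower, with a median of -0.06. After quantile normalization the median was -0.036 and 13 were lower. The median was -0.04 without the St-Vin pool of dyad group 6, and also without the St-Con pool of dyad group 4. The list median was lowest in dyad group 6, at -0.15, against -0.03 in dyad group 4 and -0.05 in dyad group 5. In the pools of dyad group 6 the markers of CA1 pyramidal cells and astrocytes were also lower in St-Vin, and their part in this was not tested.

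Among the AMPA subunits, which carry fast excitatory current, Gria4 read 10.00, 10.04 and 9.82 in St-Vin, against 10.09, 10.12 and 10.13 in St-Con. Gria3 read 10.74, 10.66 and 10.65 in St-Vin, against 10.76, 10.80 and 10.89 in St-Con. Gria2, the subunit that makes the channel impermeable to calcium once its RNA is edited, read 12.19, 12.20 and 12.10 in St-Vin, against 12.21, 12.22 and 12.28 in St-Con. None of the 3 overlapped between groups, though the gap for Gria2 was the last decimal of the values. Their differences were -0.16 ± 0.057, -0.13 ± 0.047 and -0.073 ± 0.047 (SE, n = 3 each), each with an adjusted p of 0.996. Gria1 differed by -0.02, 0.06 and -0.19 in dyad groups 4, 5 and 6, and its groups overlapped.

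Among the NMDA subunits, which form the calcium-permeable coincidence detectors of plasticity, Grin2a read 10.65, 10.48 and 10.38 in St-Vin, against 10.70, 10.59 and 10.75 in St-Con. It differed by -0.05, -0.11 and -0.37 in the dyad groups and overlapped between groups. The obligatory subunit Grin1 differed by -0.087 and Grin2b by -0.057, the second turning to 0.0118 after quantile normalization. The dim Grin3b had groups without overlap at a difference of -0.043. Grik4, the kainate subunit enriched at mossy fibre synapses, read 9.04, 9.09 and 9.11 in St-Vin, against 9.30, 8.94 and 8.84 in St-Con. Its dyad groups disagreed in direction, at -0.26, 0.15 and 0.27.

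Of 6 metabotropic receptors 4 were lower, with a median of -0.10, or -0.0459 after quantile normalization. Without the St-Con pool of dyad group 5 the median was -0.035, and without the St-Vin pool of dyad group 6 it was -0.0533. Grm5, a receptor coupled to phospholipase C, read 10.60, 10.52 and 10.40 in St-Vin, against 10.63, 10.61 and 10.68 in St-Con, without overlap, and the difference was -0.13 ± 0.076 (SE). Of the 6 members 1 (16.7%) was lower without overlap, against 5.74% of all genes and 10.2% of genes in the brightest bin. Of 23 genes of glutamate transport, synthesis and receptor auxiliary proteins 19 were lower, with a median of -0.06, and 0 had groups without overlap. After quantile normalization 13 were lower with a median of -0.0221, and without the St-Vin pool of dyad group 6 the median was 0.0033. Slc1a2, the main astrocytic glutamate transporter, read 12.38, 12.47 and 12.09 in St-Vin, against 12.40, 12.34 and 12.24 in St-Con. Without stress the AMPA, kainate and NMDA list had a median of 0.0667 and the transport list one of 0.0733.

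**Figure D4:**
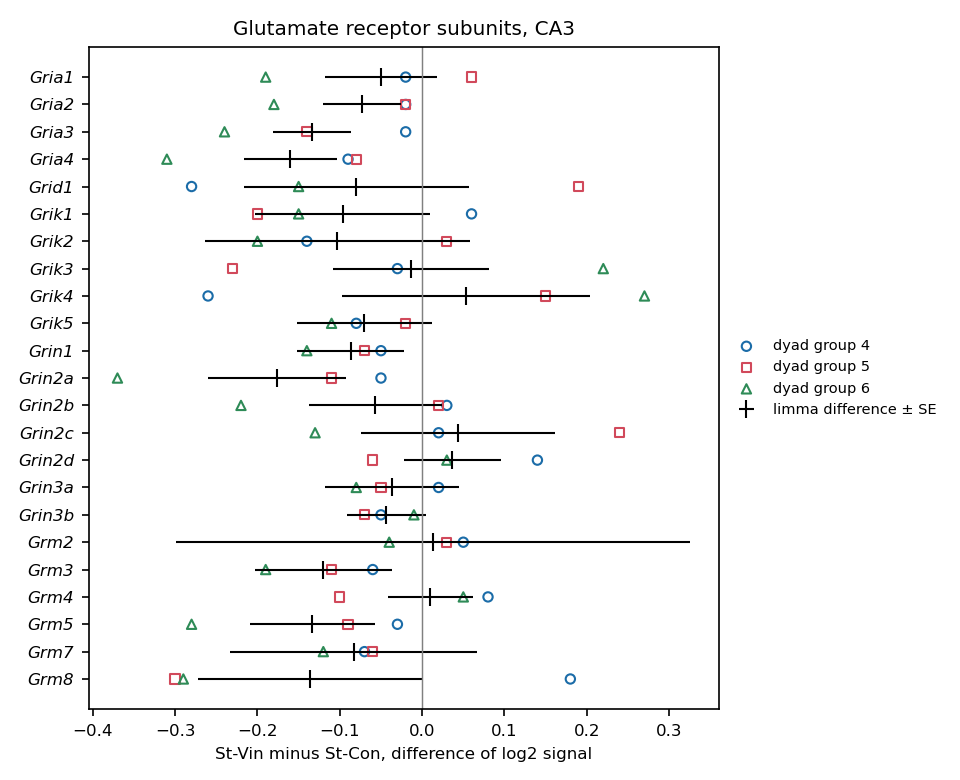
St-Vin minus St-Con difference of log2 signal (x axis) for 23 glutamate receptor subunits (y axis), with a symbol for each dyad group and a bar for the limma difference ± SE. Most bars lie left of 0 and dyad group 6 is often the lowest symbol, as for Grin2a at -0.37; no subunit passed the adjusted threshold.

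Of 33 immediate early and activity-regulated genes, which neurons transcribe within minutes to hours of firing, 22 were higher and 11 lower, with a median of 0.02. Without stress 28 of the 33 were higher in NSt-Vin, with a median of 0.0833. Npas4, an activity-dependent transcription factor, read 7.53, 7.44 and 8.33 in St-Vin, against 7.19, 7.36 and 7.82 in St-Con. Arc, which takes part in AMPA receptor removal, read 8.97, 8.71 and 9.56 in St-Vin, against 8.90, 8.88 and 9.31 in St-Con. Egr1, a zinc-finger transcription factor, read 8.94, 8.62 and 9.52 in St-Vin, against 8.95, 8.77 and 9.23 in St-Con. For all 3 the highest pool of each lineage was that of dyad group 6, so cage mates were high together. Npas4 differed by 0.31 ± 0.31, Arc by 0.05 ± 0.26 and Egr1 by 0.043 ± 0.26 (SE, n = 3 each). These SEs are from the fit without the replicate block, so they include the variation shared by cage mates. Npas4 was higher in St-Vin in each dyad group, while Arc and Egr1 differed in direction between dyad groups.

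Junb and Nptx2 were the members whose groups did not overlap, in opposite directions, 1 of 33 above and 1 of 33 below (3.03% each), against 3.39% and 5.74% of all genes. Junb, a subunit of the AP-1 transcription factor, read 7.23, 7.18 and 7.60 in St-Vin, against 7.09, 7.12 and 7.13 in St-Con, a difference of 0.22 ± 0.10 (SE). Nptx2, a secreted pentraxin that clusters AMPA receptors, read 8.74, 8.67 and 8.69 in St-Vin, against 8.97, 8.81 and 8.87 in St-Con, a difference of -0.18 ± 0.061 (SE). Both had an adjusted p of 0.996. Without stress both were higher in NSt-Vin, by 0.19 and 0.13. The interaction of lineage and stress for Nptx2 was -0.31 ± 0.087 (SE), with an adjusted p of 0.752.

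Of 30 heat shock and unfolded protein response genes, which encode chaperones of the cytosol and the endoplasmic reticulum, 27 were lower in St-Vin, with a median of -0.045. Of the 30, 22 were in the brightest bin, and after quantile normalization 15 were lower and the median was -0.0004. In 4 members (13.3%) all St-Vin pools lay below all St-Con pools, against 5.74% of all genes and 10.2% of genes in the brightest bin. Dnajb1, a co-chaperone that hands clients to Hsp70, read 8.66, 8.52 and 8.60 in St-Vin, against 8.85, 8.71 and 8.76 in St-Con. Herpud1, a protein of endoplasmic reticulum-associated degradation, read 8.56, 8.41 and 8.58 in St-Vin, against 8.68, 8.61 and 8.62 in St-Con. Their differences were -0.18 ± 0.079 and -0.12 ± 0.077 (SE, n = 3 each).

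Hspa4 and Hspa4l, Hsp110-type nucleotide exchange factors of Hsp70, make up the 4. Hspa4 read 11.04, 11.05 and 11.03 in St-Vin, against 11.16, 11.07 and 11.10 in St-Con. Hspa4l read 10.24, 10.22 and 10.21 in St-Vin, against 10.30, 10.27 and 10.28 in St-Con. After quantile normalization Hspa4l differed by 0.0078, while Dnajb1 stayed at -0.15 and Herpud1 at -0.087.

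The promoters of these 4 chaperone genes and of Junb and Nptx2 are shown. These genes are the members of a stress-inducible and an activity-inducible list whose groups did not overlap. For the chaperone list that share was 13.3%, against 10.2% of genes in the brightest bin. Junb and Nptx2 were 3.03% of their list each, against 3.39% and 5.74% of all genes. None of these genes passed the test, and the promoters are shown as a description only. Each runs 5′ to 3′ on the gene's own strand from 250 bases before to 50 bases after the annotated start, from RefSeq on build GRCr8. In the first 4, capitals mark heat shock element pairs (GAANNTTC or TTCNNGAA, both read alike on either strand) and the endoplasmic reticulum stress elements, CCAAT followed after 9 bases by CCACG and ATTGG followed after 1 base by CCACG, on either strand; both contain a CCAAT box. In Junb and Nptx2, capitals mark TGACG, the core of the cyclic AMP response element on either strand.
Dnajb1: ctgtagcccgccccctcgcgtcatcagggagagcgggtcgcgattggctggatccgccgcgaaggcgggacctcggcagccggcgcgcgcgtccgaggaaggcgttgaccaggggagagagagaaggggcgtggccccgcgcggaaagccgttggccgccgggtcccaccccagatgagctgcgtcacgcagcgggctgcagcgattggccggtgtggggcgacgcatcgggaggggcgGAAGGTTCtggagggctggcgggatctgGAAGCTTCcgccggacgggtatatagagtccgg
Herpud1: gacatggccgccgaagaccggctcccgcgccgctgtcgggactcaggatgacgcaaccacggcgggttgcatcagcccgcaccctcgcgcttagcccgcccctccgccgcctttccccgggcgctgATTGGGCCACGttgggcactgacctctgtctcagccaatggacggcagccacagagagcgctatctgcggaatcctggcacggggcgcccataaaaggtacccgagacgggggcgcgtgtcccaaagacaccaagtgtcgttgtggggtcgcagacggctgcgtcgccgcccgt
Hspa4: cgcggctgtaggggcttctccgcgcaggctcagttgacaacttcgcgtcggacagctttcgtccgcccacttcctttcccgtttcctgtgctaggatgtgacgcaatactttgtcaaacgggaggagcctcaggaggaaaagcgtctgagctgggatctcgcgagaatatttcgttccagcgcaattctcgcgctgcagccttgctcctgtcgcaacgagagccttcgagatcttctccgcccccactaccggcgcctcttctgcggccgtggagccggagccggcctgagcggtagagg
Hspa4l: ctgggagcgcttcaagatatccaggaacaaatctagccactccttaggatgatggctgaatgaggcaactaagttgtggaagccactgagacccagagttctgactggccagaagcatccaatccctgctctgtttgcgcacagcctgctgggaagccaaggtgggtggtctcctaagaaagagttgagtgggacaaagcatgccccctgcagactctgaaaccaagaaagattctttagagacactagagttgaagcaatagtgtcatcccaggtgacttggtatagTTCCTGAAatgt
Junb: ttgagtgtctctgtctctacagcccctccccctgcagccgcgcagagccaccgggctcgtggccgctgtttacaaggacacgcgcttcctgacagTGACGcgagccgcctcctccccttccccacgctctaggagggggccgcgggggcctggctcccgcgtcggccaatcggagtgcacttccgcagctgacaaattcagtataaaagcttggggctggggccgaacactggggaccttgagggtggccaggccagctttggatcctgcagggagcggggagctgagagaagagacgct
Nptx2: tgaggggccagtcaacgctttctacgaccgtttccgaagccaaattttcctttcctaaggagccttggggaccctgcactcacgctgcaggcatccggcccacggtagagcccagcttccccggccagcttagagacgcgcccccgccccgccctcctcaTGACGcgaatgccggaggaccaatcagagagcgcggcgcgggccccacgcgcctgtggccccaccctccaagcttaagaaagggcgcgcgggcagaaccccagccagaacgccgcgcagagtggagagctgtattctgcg
Dnajb1 at chr19:41431092-41431391 on the minus strand holds 2 heat shock pairs, and Hspa4l at chr2:125668096-125668395 on the plus strand holds 1. Herpud1 at chr19:10614658-10614957 on the minus strand holds the second stress element, from position -124 relative to the start, and Hspa4 at chr10:37949786-37950085 on the minus strand holds none of the 3. Junb at chr19:40080876-40081175 on the plus strand and Nptx2 at chr12:15161996-15162295 on the minus strand hold 1 TGACG each. Of all 33469 promoters in the table, 15.9% hold a heat shock pair, 0.0657% the first and 0.0508% the second stress element, and 21.2% a TGACG. Of the 26 list genes with a promoter there, 9 hold a heat shock pair, 6 the first and 3 the second stress element. A TGACG, not capitalized there, is also in Dnajb1, Herpud1 and Hspa4, and in 16 of the 26 list genes. A CCAAT box is in Dnajb1, Herpud1 and Hspa4l, and in 18 of the 26, against 37.5% of all promoters. These matches describe letters in a window, and no motif searched for is in all 4 chaperone genes.

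Corticosteroid receptors and their target genes (21 measured) had a median of -0.03, with 14 lower, and 0 had groups without overlap; after quantile normalization the median was 0.0146. Nr3c1, the glucocorticoid receptor, read 9.84, 9.70 and 9.68 in St-Vin, against 9.91, 9.80 and 10.03 in St-Con. It was lower in each dyad group, the groups overlapped, and the difference was -0.17 ± 0.079 (SE), adjusted p 0.996. Nr3c2, the mineralocorticoid receptor, read 9.86, 9.85 and 9.49 in St-Vin, against 9.99, 9.73 and 9.73 in St-Con. Fkbp5, a co-chaperone induced by glucocorticoids that lowers receptor sensitivity, differed by -0.08, 0.38 and 0.13 in dyad groups 4, 5 and 6. Nr3c2 and Fkbp5 overlapped between the groups as well.

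Genes of the sex steroid system, the target of vinclozolin, were near 0. Of 18 measured members of the androgen and estrogen list 9 were higher and 9 lower, with a median of -0.005. Esr2, estrogen receptor beta, was the member without overlap, at 6.32, 6.31 and 6.32 in St-Vin, against 6.28, 6.30 and 6.17 in St-Con, near the dim end of the array. That is 5.56% of the list, against 3.39% of all genes higher in this way. Dnmt1, the maintenance DNA methyltransferase, read 8.09, 8.15 and 8.12 in St-Vin, against 8.28, 8.15 and 8.05 in St-Con. In its list of 21 DNA methyltransferase, deacetylase and related genes, 16 were lower with a median of -0.05. After quantile normalization 13 were lower with a median of -0.0175, and without the St-Vin pool of dyad group 6 the median was -0.0133. Hdac4, a histone deacetylase that shuttles between nucleus and cytoplasm in neurons, differed by -0.15 ± 0.072 (SE).

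Circadian clock genes had 12 of 18 lower and a median of -0.072, or -0.024 after quantile normalization and -0.0333 without the St-Vin pool of dyad group 6. Clock, a core activator, read 9.25, 9.26 and 9.25 in St-Vin, against 9.35, 9.33 and 9.28 in St-Con, and was the member of the list whose groups did not overlap (5.56% of the list, against 5.74% of all genes lower in this way). Its partner Bmal1 read 8.51, 8.46 and 8.20 in St-Vin, against 8.50, 8.55 and 8.36 in St-Con. Dbp, a clock output gene, differed by -0.16, 0.06 and -0.29 in dyad groups 4, 5 and 6. The remaining clock genes lay between -0.17 for Bhlhe40 and 0.05 for Timeless and Nfil3.

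Genes that set neuronal excitability and transmitter release were lower with the other bright genes. Of 34 genes of synaptic vesicle release 27 were lower with a median of -0.06. Rims2, an active zone scaffold, at -0.11, was the 1 member (2.94%) without overlap, against 5.74% of all genes and 10.2% of genes in the brightest bin. After quantile normalization 17 of the 34 were lower with a median of -0.0031. Of 25 sodium, calcium and HCN channel genes 21 were lower, with a median of -0.07, or -0.0218 after quantile normalization. Without the St-Vin pool of dyad group 6 the medians were -0.0258 for the vesicle list and -0.0317 for the channel list. Cacnb4, an auxiliary calcium channel subunit, read 9.16, 9.07 and 9.06 in St-Vin, against 9.19, 9.28 and 9.32 in St-Con. Kcnip1, an auxiliary subunit of A-type potassium channels, read 8.17, 8.27 and 8.05 in St-Vin, against 8.62, 8.51 and 8.26 in St-Con. Its groups overlapped at their edges, and the difference was -0.30 ± 0.15 (SE). The vesicle list had a median of 0.12 and the sodium, calcium and HCN list one of 0.113 without stress.

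Housekeeping lists were mostly lower, but by less than bright genes in general. Of 67 oxidative phosphorylation genes 49 were lower with a median of -0.033, and of 68 cytosolic ribosomal protein genes 48 were lower with a median of -0.027. The brightest bin held 61 of the 67 and 60 of the 68, and its genes with a symbol had a median of -0.06. After quantile normalization both list medians were above 0, at 0.0186 and 0.0183. Without the St-Vin pool of dyad group 6 the list medians were at 0.0067 and 0.0267. Of the 67 oxidative phosphorylation genes 1 (1.49%) was higher and 2 (2.99%) were lower without overlap. Those shares were 3.39% and 5.74% of all genes, and 0.489% and 10.2% of genes in the brightest bin. The higher one was Cox7b, a subunit of cytochrome c oxidase, at 10.07, 10.12 and 10.05 in St-Vin, against 9.94, 9.98 and 9.87 in St-Con. Lists of GABA, potassium channel, monoamine, neurotrophin, cholesterol and CRH genes had medians between -0.043 and 0.01. Of 19 function lists 17 had a median below 0, and 10 did after quantile normalization.

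**Figure D5:**
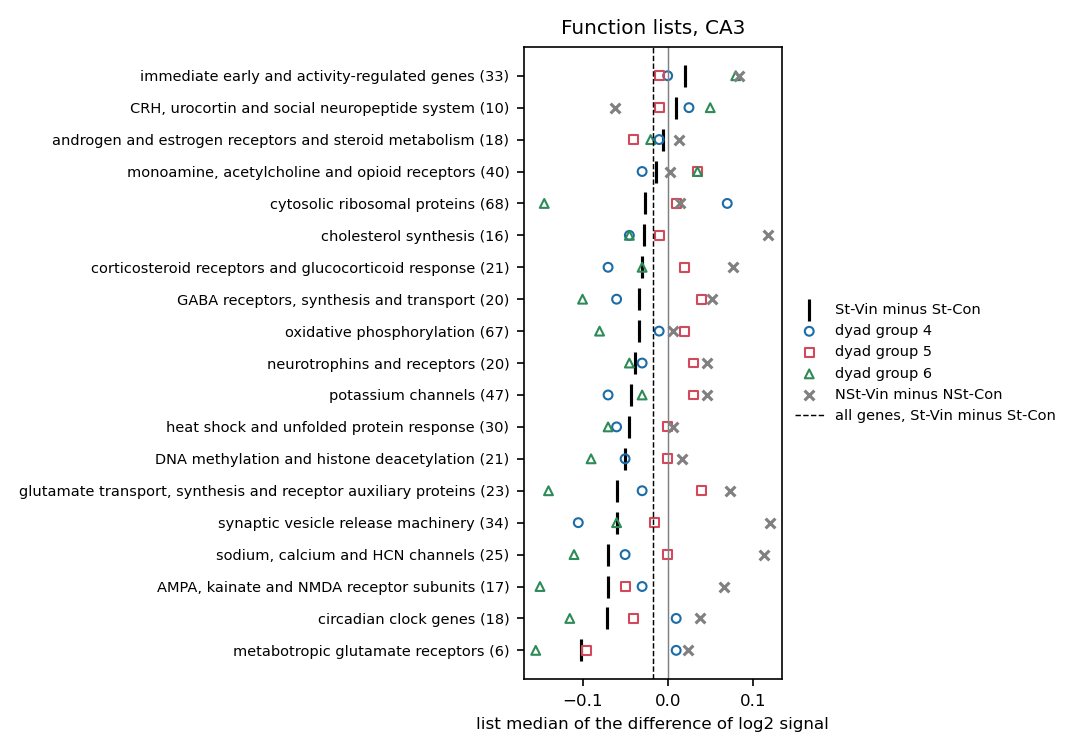
Median difference of log2 signal (x axis) in 19 function lists (y axis, genes measured in brackets), as St-Vin minus St-Con over the fit, in each dyad group, and as NSt-Vin minus NSt-Con. Metabotropic glutamate receptors are lowest at -0.10; most lists lie left of the dashed median of all genes (-0.0167), and most crosses for unstressed rats lie right of 0.

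Of the cell type lists, leptomeninges and perivascular fibroblasts had 14 of 15 members higher in St-Vin, with a median of 0.087 and dyad group medians of -0.02, 0.18 and 0.22. Leaving out 1 pool at a time gave medians of 0.0533 to 0.165. Without stress 11 of the 15 were lower, with a median of -0.1133. Under stress the list median was -0.0067 in BLA and 0.1567 in CRTX. Of the 15, 2 (13.3%) had St-Vin pools all above the St-Con pools, against 3.39% of all genes. Ptgds, a prostaglandin D synthase made by leptomeningeal cells and oligodendrocytes, read 10.70, 11.03 and 10.53 in St-Vin, against 10.25, 10.28 and 10.31 in St-Con. Aldh1a2, a retinoic acid synthesizing enzyme of the meninges, read 7.04, 7.51 and 6.96 in St-Vin, against 6.80, 6.93 and 6.87 in St-Con. Neither overlapped, and their differences were 0.47 ± 0.20 and 0.30 (SE for the first). Collagen genes Col1a1 and Col3a1 differed by 0.06 and 0.057. Striatal medium spiny neuron markers had 13 of 14 higher with a median of 0.11. The dyad group medians of this list were 0.02, 0.105 and 0.215, and its median was 0.025 without the St-Vin pool of dyad group 6. Without stress 13 of the 14 were lower, with a median of -0.2567. The unstressed dyad groups 1, 2 and 3 were at 0.11, -1.36 and 0.38. Under stress the median of these markers was -0.2567 in BLA and 0.03 in CRTX. Among the members, Drd1 was at 7.50, 7.85 and 7.98 in St-Vin, against 7.51, 7.61 and 7.53 in St-Con.

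Whether the lineage difference under stress departs from that without stress was tested as an interaction. Of 27342 probe sets 0 passed (0%), with 1805 at an unadjusted p under 0.05 and a lowest adjusted p of 0.752. Epha5, an ephrin receptor of axon guidance and synapse formation, had the smallest p among named genes. It read 10.15, 10.11 and 10.03 in St-Vin, against 10.18, 10.26 and 10.26 in St-Con, and 10.39, 10.41 and 10.30 in NSt-Vin, against 10.06, 10.13 and 10.12 in NSt-Con. The vinclozolin lineage was thus the lower in every stressed pool and the higher in every unstressed one, and the interaction was -0.40 ± 0.072 (SE), adjusted p 0.752. Or1f21, the olfactory receptor gene given above, had an interaction of 0.36 ± 0.087 (SE) at the same adjusted p.

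Whether the difference departs from that in other areas was tested on the per-dyad differences of CA3, BLA and CRTX, 9 differences from 18 arrays, in which the same dyad groups supplied all areas. Of 27342 probe sets 0 passed (0%), with 1416 at an unadjusted p under 0.05 and a lowest adjusted p of 0.323. Pdyn, the precursor of dynorphin peptides of the mossy fibres, read 8.21, 8.90 and 7.79 in St-Vin, against 8.17, 8.21 and 7.42 in St-Con. It was higher in each dyad group but overlapped between groups, by 0.37 ± 0.35 (SE). It differed by -0.20 in BLA and by -0.11 in CRTX, and CA3 minus their mean was 0.52 ± 0.11 (SE), adjusted p 0.723. C1ql2, the other mossy fibre product given above, was also highest in St-Vin of dyad group 5. Striatal medium spiny neuron markers were likewise higher in CA3 and lower in BLA, as given above. Their list median was 0.2283 for CA3 minus the mean of BLA and CRTX. The parts of striatal and of dentate granule cell content, whose markers varied between the CA3 pools as given above, were not tested. Khdrbs2, a splicing regulator of the brain, differed by -0.13 in CA3, 0.28 in BLA and 0.20 in CRTX, adjusted p 0.757.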

How the data were processed

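RNA of CA3 punches was measured on 1-colour Affymetrix whole-transcript arrays. The deposited values are log2 signals made by the authors with Partek and RMA, which corrects background, normalizes arrays and summarises probe sets, per the submitters' processing notes; their versions are not given in the sources used here. The table has 27342 probe sets. Of these, the platform annotation gives 15097 1 gene symbol, 323 several and 11922 none, and 15067 were matched by gene number to RefSeq GRCr8. The build of the probe sets is not given, so they have no coordinates here. A gene with several probe sets is given by the brightest, unless the naming rule picked another. The file has 0 columns left unused.

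Group means were fitted with limma 3.58.1 (R 4.3.3, lmFit and eBayes, two-sided) over the 12 CA3 arrays, which share one estimate of the spread, with Benjamini-Hochberg adjustment over all probe sets and a threshold of 0.05. The area comparison fitted dyad differences with dyad group as a block; CA1 was left out because its 3 St-Vin arrays were scanned on day 4 of the series and its St-Con arrays 1 and 2 on day 3, while St-Con array 3 equals the mean of those. Precision is set by the number of arrays, which have no sequencing depth. CA3 array medians were 7.34 to 7.39, the lowest correlation between CA3 arrays was 0.989 and the median SD between replicates 0.084. The fit was tested on simulated data over 27342 probe sets, with independent noise and no dyad effect. It recovered 67% of changes of 0.5 and 98% of changes of 1, with 7 false calls, and smaller changes were not simulated. Tables and figures used Python 3.11.15, pandas 2.3.3 and matplotlib 3.10.9.

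The pairing of the pools comes from the labels, since dyads were cage mates. Deviations from the group means correlated at 0.00345, 0.363 and 0.34 in dyad groups 4, 5 and 6, and at -0.521 to 0.298 in other pairs.

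The members and the 36 gene lists (19 of functions, 17 of cell types) were chosen with earlier results of these data known. Genes were named by rule: per direction the 12 smallest p-values among probe sets with 1 symbol, at or above the median level of 7.37 and with 3 dyad differences of that sign; in each function list up to 4 members with the smallest p-values and dyad differences of a sign; a fixed set of stress, clock, glutamate, steroid and activity genes; and the 3 smallest p-values of the interaction and of the area comparison. Others named were chosen after their values were seen. Alternatives were the replicate block, the 6 arrays alone, a filter at the 30th percentile, quantile normalization, eBayes with a trend and robust estimates, and leaving out each array, each dyad group and the array rich in choroid plexus markers.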

Additional observations from a re-analysis of the deposited data

Results flagged for a closer look

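Of the 36 lists, 3 had medians of the same sign in all 3 stressed dyad groups and of the opposite sign in all 3 unstressed ones. These differences were not tested, nor was how many of 36 lists would do so by chance. The AMPA, kainate and NMDA receptor subunits were at -0.03, -0.05 and -0.15 in the stressed dyad groups 4, 5 and 6, against 0.08, 0.06 and 0.07 in the unstressed dyad groups 1, 2 and 3, a difference of means of -0.1467. The synaptic vesicle release list was at -0.105, -0.015 and -0.06 with stress, against 0.18, 0.1 and 0.06 without, a difference of -0.1733. Both hold mostly bright genes, and the brightest bin of all probe sets was at -0.0567 with stress and 0.0533 without. The thalamus and habenula markers were at 0.01, 0.02 and 0.03 with stress, against -0.03, -0.03 and -0.11 without, a difference of 0.0767. Their values with stress are close to the last decimal of the signals.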

How the results depend on the processing

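Of 37 alternative counts of probe sets past the threshold, 36 were 0, as in the report, and 1 was not: the 6 stressed arrays alone with the replicate block gave 2. The replicate block changed no other call, and no paired fit of the 12 arrays called a probe set. Unadjusted p-values under 0.05 numbered 1003 after quantile normalization, 765 of 19139 probe sets above the 30th percentile, 649 to 1350 without 1 array, and 523 to 1169 without 1 dyad group, the lowest without dyad group 6. 5 of the alternatives (other fits of the same arrays, and the array rich in choroid plexus markers, an unstressed one) cannot change a difference of stressed group means. Under the others, 31 of 396 list medians moved by over 1 SD between dyad groups, and 38 of 1293 gene differences, in 17 of 118 named genes, changed sign. Quantile normalization gave 0.0121 for Gphn, 0.0128 for Sc5d, 0.0118 for Grin2b, 0.035 for Slc1a2 and 0.0336 for Slc17a7. Without dyad group 6 the difference was 0.02 for Crh, -0.05 for Arc, -0.08 for Egr1, 0.02 for Gria1, 0.025 for Grin2b, 0.055 for Slc1a2 and -0.055 for Grik4. Without dyad group 4 it was -0.035 for Per2, 0.025 for Slc17a7 and 0.035 for Dnmt1. Leaving out 1 array at a time gave -0.1517 to 0.0033 for Grm7, -0.1267 to 0.0033 for Dlg2, -0.1467 to 0.0383 for Nr3c2, -0.0533 to 0.1217 for Bdnf, -0.19 to 0.235 for Arc, -0.2033 to 0.2467 for Egr1, -0.0233 to 0.0667 for Per2, -0.14 to 0.015 for Bmal1, -0.105 to 0.03 for Gria1, -0.1217 to 0.0283 for Grin2b, -0.0917 to 0.0983 for Slc1a2, -0.0567 to 0.0383 for Slc17a7, -0.04 to 0.19 for Grik4 and -0.095 to 0.02 for Dnmt1. The cause was not tested. With 3 pools a group the number of arrays limits the sizes that can be called.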
